A study of Caenorhabditis elegans with 6 samples.

Results

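Transcripts of the genes named lgc, acr, glr and nmr were followed in whole Caenorhabditis elegans. The set was chosen by symbol alone, as every gene called lgc-, acr-, glr- or nmr- and a number, and it held 87 of the 46778 gene identifiers in the count tables. There were 56 lgc, 21 acr, 8 glr and 2 nmr genes, and all were annotated as protein-coding. The animals were collected at L4, the last larval stage, after growth from the egg on Escherichia coli. UM10 carries aex-3p::alphasynA53T, a transgene that makes human alpha-synuclein, with an amino acid change known from familial Parkinson's disease, in neurons under the aex-3 promoter. N2 is the wild type. There were 2 libraries each of UM10 on csgA(-) bacteria, which lack the main curli subunit, of UM10 on K12 BW25113, and of N2 on K12. The sample titles write the K12 food as WT, and the csgA(-) food was not tested in N2 here. UM10 was represented by 1 transgenic strain, so the transgene and any other difference of that strain cannot be told apart. For the 4 UM10 libraries the names of the deposited tables and the sample titles disagree, each calling csgA(-) what the other calls K12. Foods below follow the titles, and the 2 UM10 groups would change places if the table names were right. A comparison of the mean of both UM10 groups with N2 was added because it does not depend on that label. Nothing in the labels says that libraries of a group came from separate cultures, so p-values measure only the spread between these libraries.

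Ligand-gated ion channels open when a transmitter binds and so turn a chemical signal into a current. The acr genes encode subunits of the nicotinic acetylcholine receptor family and the lgc genes encode other members of the same Cys-loop superfamily, in which 5 subunits surround the pore. Worm Cys-loop channels answer to acetylcholine, GABA, serotonin, dopamine, tyramine and betaine, some passing cations and some chloride. The glr genes encode glutamate receptor subunits related to the AMPA and kainate receptors of mammals, and nmr genes encode NMDA receptor subunits. Most of the characterised members act in neurons or in body wall muscle.

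Gene counts per library ran from 22657727 to 23532382. Levels are given in CPM, gene counts scaled to a common library size, with trimmed mean of M-values (TMM) factors applied. N2 replicate 1 stood apart in composition, with a TMM factor of 0.610 against 1.02 to 1.20 in the other 5 libraries. The 2 libraries of a group were never within sampling noise of each other, the chi-square divided by its degrees of freedom being 129 in UM10 on csgA(-), 125 in UM10 on K12 and 177 in N2. Of the 87 channel genes, 63 passed the filter on low counts and were tested among 15331 genes, comprising 37 lgc, 18 acr, 6 glr and both nmr genes. The median count of a tested channel gene in a library was 35. The parts of low counts and of replicate spread in the precision for a typical member were not tested. The median standard error of a member's log2 fold change was 0.64 for UM10 on csgA(-) against N2, 0.63 for UM10 on K12 against N2, 0.54 for the mean of both UM10 groups against N2, and 0.63 for the comparison of foods.

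The remaining 24 members were near or at the floor of detection. Their counts summed over the 6 libraries had a median of 10 and a maximum of 39, and no single library held more than 22 counts of any of them. No read was counted in any library for lgc-5, lgc-15 or lgc-17, and a count of 0 in a library allows up to 3 counts by counting error alone. The kainate-type subunit gene glr-3, whose product is known as a cold sensor in a chemosensory neuron, had 2 and 2 counts in UM10 on csgA(-), 3 and 1 in UM10 on K12, and 0 and 5 in N2. The acetylcholine receptor genes acr-10, acr-14 and acr-25 and the glutamate receptor gene glr-7 also failed the filter. Changes in these 24 genes were not detectable at this depth.

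Some of the members below the filter lie next to each other. The X chromosome carried 27 of the 87 members (31.03%), against 13.5% of all protein-coding identifiers in the tables. On X, lgc-13 to lgc-18 lie in a row on the same strand, with gaps of 212 to 2716 bases in WBcel235. Of these 6 genes lgc-13 (X 12109166 to 12111300) alone passed the filter, and the other 5 had between 0 and 18 counts over all libraries. Chromosome IV had a similar pattern, with the neighbouring pairs lgc-5 and lgc-6, and lgc-7 and lgc-8, all below the filter, and 6 of its 14 members tested. On chromosome III all 10 members were tested.

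Levels per length, given as CPM per kilobase of exon and averaged over the 6 libraries, differed widely among members. The most abundant were lgc-22 at 45.4 (range over libraries 27.9 to 74.9), lgc-21 at 34.8 (18.3 to 65.4) and lgc-34 at 15.7 (5.53 to 34.3). These 3 genes together took 49.9% of the summed CPM of all 87 members. They were followed by lgc-32 at 8.76, lgc-45 at 4.47, lgc-39 at 3.27, acr-16 at 3.26, lgc-44 at 2.92, lgc-27 at 2.87 and lgc-43 at 2.24, all in CPM per kilobase. The ranges over libraries of neighbours in this order overlapped. Within every single library lgc-21 was above lgc-34, and lgc-45 was above lgc-39. The other neighbours changed places between libraries, so their order is not resolved. Among the tested members 37 were below 1 CPM per kilobase. The well-studied synaptic receptor genes glr-1 (0.361), nmr-2 (0.332) and nmr-1 (0.176) were in this low range. Whole-animal RNA was sequenced, so a channel used by a few neurons is diluted by all other tissues, and fewer expressing cells cannot be told apart from less RNA per cell.

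**Figure D1:**
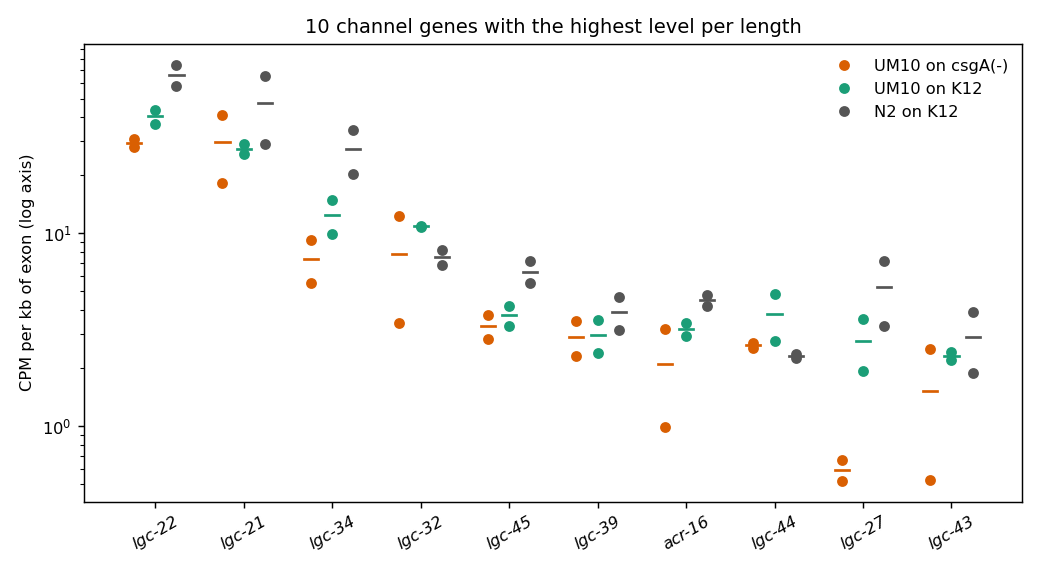
Level of the 10 most abundant channel genes in CPM per kilobase of exon on a log axis. Points are single libraries of UM10 on csgA(-), UM10 on K12 and N2 on K12 (2 each), and short lines are group means. For lgc-34 and lgc-22 all 4 UM10 points lie below both N2 points, while those of lgc-21 and lgc-39 overlap N2.

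The channel genes lgc-27 and lgc-34 were called lower than in N2 in UM10 on csgA(-) and in the mean of both UM10 groups, but not in UM10 on K12. N2 was not tested on csgA(-), so strain and food differ together on csgA(-) and in part in the mean. No channel gene was called higher in the edgeR fit reported here. In UM10 on csgA(-) against N2, 2 of 63 tested members were called at an adjusted p under 0.05, both lower, beside 9.05% of all tested genes called, 5.11% lower and 3.95% higher. In the mean of both UM10 groups against N2 the same 2 were called, beside 10.3% of all tested genes called, 5.25% lower and 5.07% higher. In UM10 on K12 against N2 no member was called, beside 2.75% of all tested genes, 0.541% lower and 2.2% higher. By edgeR's quasi-likelihood test 1 member, lgc-34, had an unadjusted p under 0.05 there, beside 19.1% of all tested genes, and DESeq2 also called 0 members. At an unadjusted p under 0.05 there were 6 members on csgA(-) (28.4% of all tested genes) and 6 for the mean of both UM10 groups (28.3%). Counts of called members were thus not above the background in any comparison.

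The gene lgc-27 (WBGene00022283, chromosome II 4649085 to 4653283, plus strand) encodes a Cys-loop subunit. It was at 0.781 and 0.998 CPM in UM10 on csgA(-), 2.90 and 5.38 CPM in UM10 on K12, and 4.92 and 10.8 CPM in N2, and its counts were 19 and 26 in UM10 on csgA(-), 79 and 146 in UM10 on K12, and 68 and 250 in N2. Both csgA(-) libraries lay below all other libraries, and the UM10 on K12 libraries overlapped N2. The log2 fold change of UM10 on csgA(-) over N2 was -3.14 ± 0.63 (SE; edgeR adjusted p 0.0163, Benjamini-Hochberg). For the mean of both UM10 groups over N2 it was -2.04 ± 0.48 (SE; edgeR adjusted p 0.0254), and for UM10 on K12 it was -0.93 ± 0.57 (SE; edgeR adjusted p 0.394). Of its exon bases 8.62% overlap other genes, chiefly fut-6 on the opposite strand. With the stranded count columns the csgA(-) log2 fold change was -2.47 with the first (edgeR adjusted p 0.0349) and -2.80 with the second (0.0199). With the first column the call of the mean of both groups was lost (0.0626). The libraries showed no strand preference, the first column holding 48.4% to 49.7% of the stranded counts. These columns therefore cannot separate lgc-27 from fut-6. Without csgA(-) replicate 1 the csgA(-) log2 fold change was -3.10 and its adjusted p 0.0556. The call of the mean of both groups was lost without N2 replicate 1 (-2.58, adjusted p 0.0635), N2 replicate 2 (-1.37, 0.145) or UM10 on K12 replicate 1 (-1.88, 0.0879).

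The third most abundant member, lgc-34 (WBGene00020836, chromosome II 526574 to 530374, plus strand), also encodes a Cys-loop subunit and overlaps no exon of another gene. It was at 13.02 and 7.83 CPM in UM10 on csgA(-), 21.1 and 14.1 CPM in UM10 on K12, and 48.7 and 28.8 CPM in N2. All 4 UM10 libraries lay below both N2 libraries, and both csgA(-) libraries lay below both UM10 on K12 libraries. The log2 fold change over N2 was -1.89 ± 0.46 (SE) for UM10 on csgA(-) (edgeR adjusted p 0.0294) and -1.52 ± 0.37 (SE) for the mean of both UM10 groups (edgeR adjusted p 0.0292). On K12 it was -1.14 ± 0.45 (SE; edgeR adjusted p 0.200). The csgA(-) call was lost without N2 replicate 1 (log2 fold change -1.58, adjusted p 0.181), csgA(-) replicate 1 (-2.44, 0.0546) or csgA(-) replicate 2 (-1.59, 0.105). With libraries left out, the value of the mean stayed between -1.85 and -1.16, and its call was lost without N2 replicate 1 (0.262), UM10 on K12 replicate 1 (0.0710), UM10 on K12 replicate 2 (0.0955) or csgA(-) replicate 2 (0.0537). It was also lost without N2 replicate 1 and csgA(-) replicate 1 together (0.0686).

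Other abundant lgc genes did not pass the test. The most abundant member, lgc-22 (chromosome IV 4301306 to 4304448), was at 41.01 and 45.3 CPM in UM10 on csgA(-), 54.4 and 64.3 CPM in UM10 on K12, and 85.5 and 110.0 CPM in N2. Its groups did not overlap in any of the comparisons, with csgA(-) lowest and N2 highest, and its log2 fold change for the mean of both UM10 groups over N2 was -0.95 ± 0.32 (SE; edgeR adjusted p 0.0786). It was called in that comparison with upper-quartile scaling (adjusted p 0.0453) and with DESeq2 (0.0316). Similarly, lgc-45 was at 9.86 and 13.2 CPM in UM10 on csgA(-), 11.5 and 14.7 in UM10 on K12, and 19.2 and 24.9 in N2, a log2 fold change of the mean of both groups of -0.84 ± 0.35 (SE) that was not called (edgeR adjusted p 0.137). Among the UM10 libraries, lgc-21 spread from 27.6 CPM in csgA(-) replicate 1 to 62.1 CPM in csgA(-) replicate 2, with 43.9 and 39.02 CPM on K12, against 98.8 and 44.0 CPM in N2, so its groups overlapped.

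In the opposite direction, lgc-32 was at 4.48 and 15.97 CPM in UM10 on csgA(-), 14.1 and 14.3 CPM in UM10 on K12, and 10.6 and 8.91 CPM in N2. For lgc-44 the levels were 5.22 and 4.91 CPM in UM10 on csgA(-), 9.35 and 5.31 CPM in UM10 on K12, and 4.35 and 4.54 CPM in N2, so that all UM10 libraries lay above N2. Neither gene was called. The largest positive log2 fold changes belonged to members near the floor. For lgc-13 there were 23 and 49 counts in UM10 on csgA(-), 11 and 10 in UM10 on K12, and 1 and 10 in N2, and the log2 fold change of csgA(-) over N2 was 2.35 ± 0.85 (SE; edgeR adjusted p 0.0988). For lgc-1 there were 20 and 11 counts in UM10 on csgA(-), 12 and 10 in UM10 on K12, and 0 and 6 in N2. It was not called in any comparison (edgeR adjusted p 0.217 to 0.915). After lgc-13 and lgc-1, the highest log2 fold change of csgA(-) over N2 was 0.61 for lgc-25. For UM10 on K12 over N2 the highest were 1.41 for lgc-1, 0.79 for lgc-38 and 0.72 for lgc-37. The lowest there were -1.38 for lgc-58, -1.29 for lgc-55 and -1.15 for lgc-54. None of these values was called. For lgc-58, with 8 to 26 counts per library, all UM10 libraries lay below both N2 libraries.

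**Figure D2:**
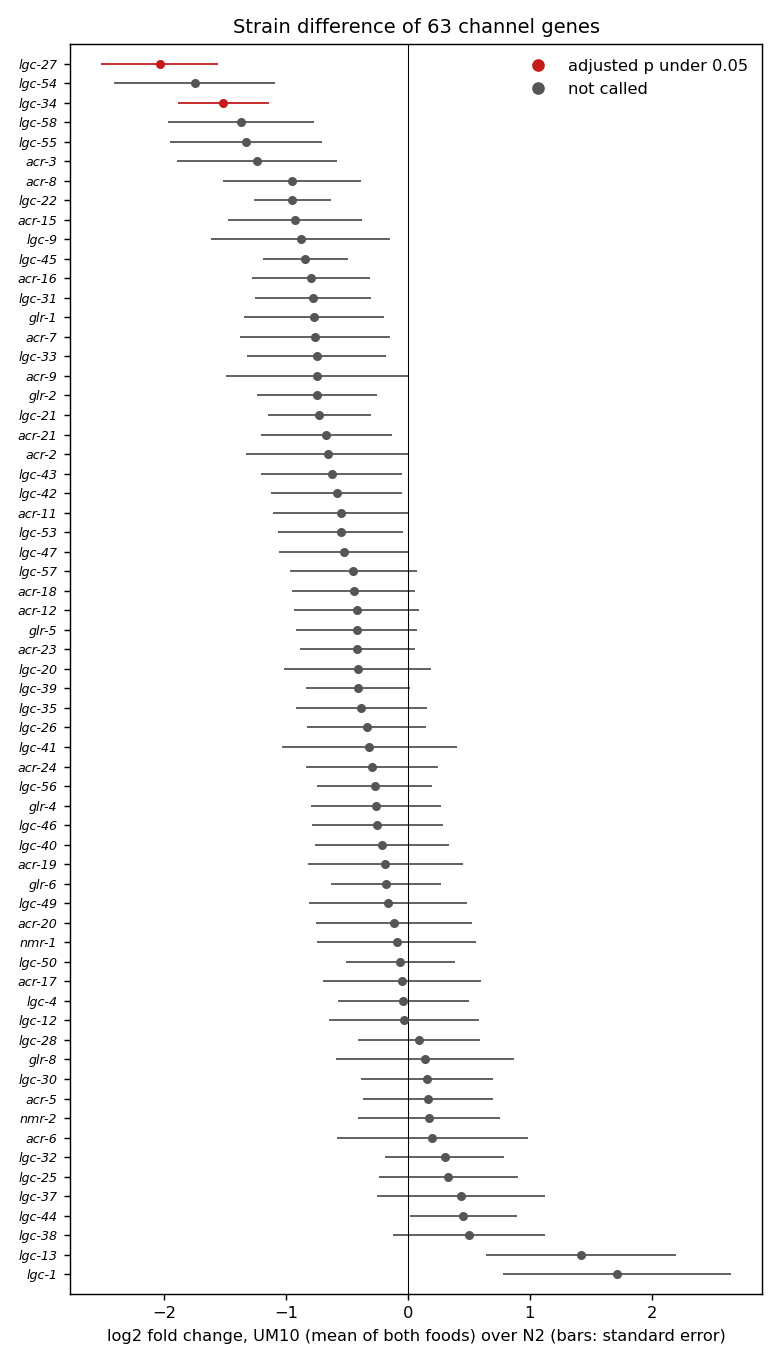
Log2 fold change of the mean of both UM10 groups over N2 for each of the 63 tested channel genes, with the standard error as a bar. Red points are called at an adjusted p under 0.05 (lgc-27 and lgc-34), and 50 of the 63 points lie below 0.

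The nicotinic acetylcholine receptor genes were measured at low levels. The muscle receptor gene acr-16, whose product forms the levamisole-insensitive receptor of body wall muscle, was at 1.81 and 5.84 CPM in UM10 on csgA(-), 6.23 and 5.38 CPM in UM10 on K12, and 8.76 and 7.61 CPM in N2. All UM10 libraries lay below N2, and the log2 fold change for the mean of both UM10 groups was -0.79 ± 0.48 (SE; edgeR adjusted p 0.311). Its neighbour on chromosome V, acr-15, was at 0.781 and 2.76 CPM in UM10 on csgA(-), 3.30 and 1.95 CPM in UM10 on K12, and 3.98 and 4.24 CPM in N2. All 7 tested members of the ACR-16 group had a log2 fold change below 0 in that comparison, with a median of -0.75 beside -0.04 for all tested genes, and none was called.

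Members related to the levamisole receptor comprised 5 tested genes, none of them called. For acr-12, a subunit gene of motor neuron receptors, the levels were 1.27 and 2.92 CPM in UM10 on csgA(-), 2.09 and 3.76 CPM in UM10 on K12, and 3.40 and 3.24 CPM in N2. The partner genes acr-2 and acr-3, which lie 229 bases apart on X and encode subunits of the excitatory receptor of cholinergic motor neurons, had log2 fold changes for the mean of both UM10 groups of -0.66 and -1.24, with standard errors of 0.67 and 0.65. Their counts were low, from 5 to 27 per library for acr-2 and from 10 to 35 for acr-3. The muscle subunit gene acr-8 was at 1.03 and 4.49 CPM in UM10 on csgA(-), 3.81 and 2.84 CPM in UM10 on K12, and 4.27 and 7.44 CPM in N2, so that csgA(-) replicate 1 was the lowest library.

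The DEG-3 group had 6 tested genes and a median log2 fold change of -0.21 for the mean of both UM10 groups. In it acr-23, which encodes a betaine receptor targeted by the anthelmintic monepantel, was at 1.56 and 2.46 CPM in UM10 on csgA(-), 2.02 and 2.65 CPM in UM10 on K12, and 2.75 and 3.03 CPM in N2, a log2 fold change of -0.42 ± 0.47 (SE). All UM10 libraries lay below both N2 libraries, but the difference was smaller than its standard error. The other genes of the group ranged from -0.45 to 0.17, none of them called.

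Genes for channels gated by amines, GABA or acetylcholine were the largest group with known ligands, and 13 of 17 could be tested. None was called in any comparison, and 11 of 13 had a log2 fold change below 0 for the mean of both UM10 groups. The tyramine-gated chloride channel gene lgc-55 was at 0.329 and 1.27 CPM in UM10 on csgA(-), 0.550 and 1.14 CPM in UM10 on K12, and 1.67 and 2.46 CPM in N2. Its UM10 and N2 libraries did not overlap, and the log2 fold change of the mean of both UM10 groups was -1.33 ± 0.62 (SE; edgeR adjusted p 0.187). The dopamine-gated chloride channel gene lgc-53 was at 0.781 and 0.921 CPM in UM10 on csgA(-), 1.61 and 1.92 CPM in UM10 on K12, and 2.25 and 1.38 CPM in N2, with both csgA(-) libraries below the other 4.

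The serotonin-gated cation channel gene lgc-50 was at 3.62 and 6.10 CPM in UM10 on csgA(-), 3.37 and 3.94 CPM in UM10 on K12, and 3.69 and 5.10 CPM in N2, a log2 fold change of -0.06 ± 0.45 (SE) for the mean of both UM10 groups. The groups overlapped for this gene in every comparison. For lgc-35, a GABA-gated cation channel gene, and lgc-46, an acetylcholine-gated chloride channel gene, the values were -0.38 and -0.25 with standard errors of 0.54 and 0.54. The largest negative value of the group was that of lgc-54 (chromosome V 6840217 to 6846607), with 3 and 22 counts in UM10 on csgA(-), 28 and 33 in UM10 on K12, and 47 and 38 in N2. Its csgA(-) log2 fold change over N2 was -2.35 ± 0.83 (SE; edgeR adjusted p 0.0945). Of its exon bases 11.99% overlap hpo-8 and T15B7.1. The stranded columns cannot separate this overlap, since the libraries showed no strand preference. With them the csgA(-) log2 fold change over N2 was -1.59 with the first (edgeR adjusted p 0.0462) and -1.63 with the second (0.0420). It was called with DESeq2 (-2.49, adjusted p 0.0322) and without the filter on low counts (-2.35, edgeR adjusted p 0.0169). With libraries left out it ran from -4.30 without csgA(-) replicate 2 (edgeR adjusted p 0.0288) to -1.06 without N2 replicate 1 and csgA(-) replicate 1 together (0.788).

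Glutamate receptor genes were also not called. The AMPA-type subunit gene glr-1, known from the command interneurons for locomotion, was at 0.370 and 0.960 CPM in UM10 on csgA(-), 1.06 and 1.18 CPM in UM10 on K12, and 1.30 and 1.64 CPM in N2. The related glr-2 was at 0.863 and 1.27 CPM in UM10 on csgA(-), 1.54 and 1.77 CPM in UM10 on K12, and 2.03 and 2.42 CPM in N2, although 21.01% of its exon bases overlap non-coding RNA genes. In both genes every csgA(-) library was below every UM10 on K12 library and these were below every N2 library. Counts were low, from 9 to 38 per library for glr-1 and from 21 to 56 for glr-2. Their log2 fold changes of the mean of both UM10 groups were -0.77 and -0.75, with standard errors of 0.57 and 0.49. The more abundant kainate-type gene glr-6 was at 6.45 and 6.53 CPM in UM10 on csgA(-), 4.80 and 7.15 CPM in UM10 on K12, and 4.27 and 9.77 CPM in N2, so N2 alone spanned all UM10 values. The NMDA receptor genes nmr-1 and nmr-2 had log2 fold changes of -0.09 and 0.17 with standard errors of 0.65 and 0.58, from 5 to 34 counts per library.

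**Figure D3:**
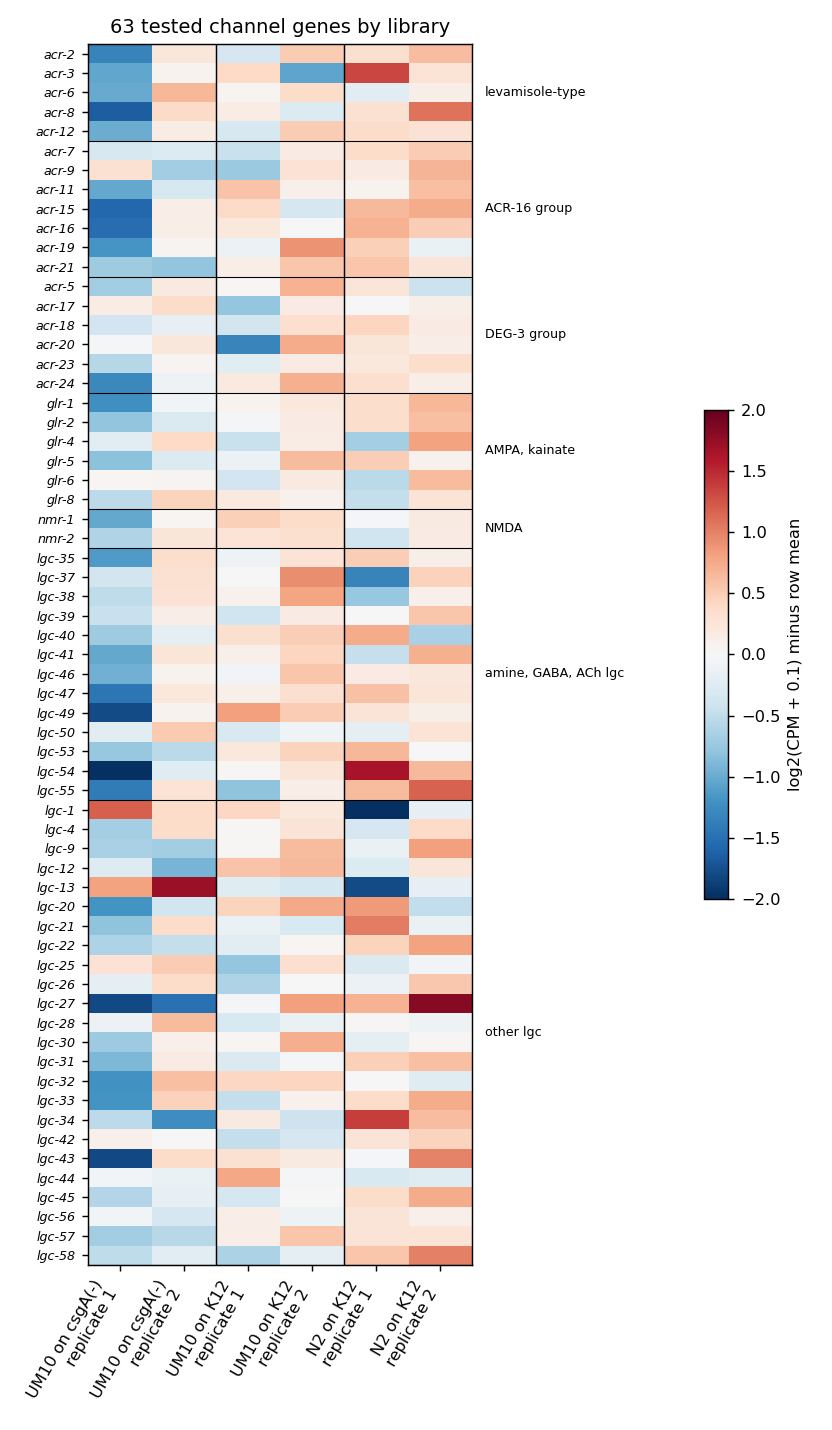
Each row is 1 of the 63 tested channel genes and each column 1 library of UM10 on csgA(-), UM10 on K12 or N2 on K12. Colour gives log2(CPM + 0.1) minus the mean of the row, limited to -2 and 2. The first column, UM10 on csgA(-) replicate 1, holds the lowest value of 40 rows.

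Most channel genes were on the low side in UM10, and the size of this shift depended on which libraries were used. For UM10 on csgA(-) against N2, 51 of 63 members had a log2 fold change below 0, with a median of -0.67, beside 47.3% below 0 and a median of 0.07 for all tested genes. For the mean of both UM10 groups it was 50 of 63 with a median of -0.41, beside 51.8% and -0.04. For UM10 on K12 it was 40 of 63 with a median of -0.19, beside 54.1% and -0.09. These comparisons share the N2 libraries. Libraries of the groups did not overlap, with UM10 lower, for 30 of 63 members on csgA(-) (26.5% of all tested genes), for 18 on K12 (24.5%), and for 14 when all UM10 libraries were set against N2 (16.2%). They did not overlap, with UM10 higher, for 5 members on csgA(-) (34.3% of all tested genes), for 8 on K12 (25.9%), and for 2 when all UM10 libraries were set against N2 (21.1%). Without N2 replicate 1, which stood apart in composition, the median over members was -0.76 on csgA(-) (all tested genes -0.03), -0.51 for the mean of both groups (-0.09) and -0.30 on K12 (-0.07).

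UM10 on csgA(-) replicate 1 was the lowest of the 6 libraries for 40 of the 63 members (63.5%), against 24.7% of all tested genes. The summed level of all 87 members was 163 and 259.7 CPM in UM10 on csgA(-), 251 and 274 CPM in UM10 on K12, and 387 and 367 CPM in N2. Without the 3 most abundant members it was 81.0 and 144.5 CPM in UM10 on csgA(-), 131 and 157 CPM in UM10 on K12, and 154 and 184 CPM in N2, so that a UM10 on K12 library then exceeded an N2 library. With csgA(-) replicate 1 left out, the median of csgA(-) over N2 was -0.36 (all tested genes -0.01) and 0 members were called. With csgA(-) replicate 2 left out, that median was -1.21 (all tested genes -0.04), with 59 of 65 tested members below 0 and 2 called. Without UM10 on K12 replicate 1, the median of UM10 on K12 over N2 was 0.02 (all tested genes -0.06).

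The food comparison within UM10 called no member among the 63 and no gene among all tested (0%), by edgeR's quasi-likelihood test. At an unadjusted p under 0.05 there were 2 members (3.17%), lgc-27 lower and lgc-13 higher on csgA(-), beside 9.92% of all tested genes. DESeq2 called 1 member, lgc-27 (log2 fold change -2.27, adjusted p 0.0246), and 242 genes in all. With edgeR, lgc-27 had a log2 fold change of csgA(-) over K12 of -2.21 ± 0.61 (adjusted p 0.270). After lgc-27 the lowest values were -1.51 for lgc-9 and -1.46 for lgc-20, and after lgc-13 (1.86) the highest were 0.61 for lgc-1 and 0.58 for acr-17. Of the 63 members, 48 had a log2 fold change below 0 with a median of -0.47, beside 50% and 1.15e-05 for all tested genes. The libraries did not overlap, with csgA(-) lower, for 20 members (19% of all tested genes), and with csgA(-) higher for 3 (21.7%). Without csgA(-) replicate 2 the median was -1.13 (all tested genes -0.11). Without csgA(-) replicate 1 it was -0.19 (all tested genes -0.15), and without that library and N2 replicate 1 together it was -0.07 (all tested genes -0.04). Every food direction would change sign under the names of the deposited tables.

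**Figure D4:**
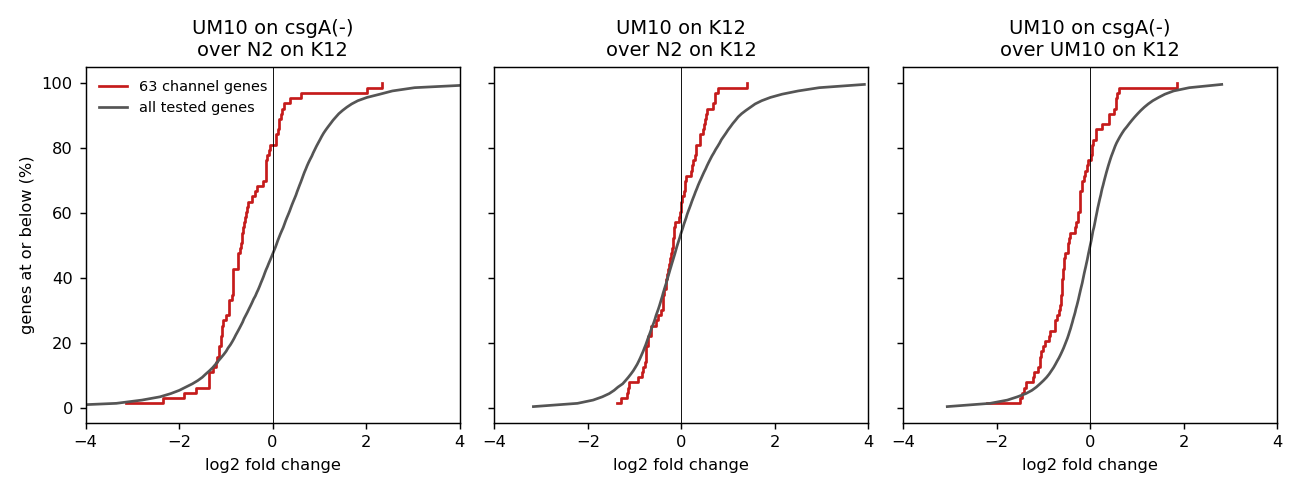
Cumulative share of genes (percent, vertical axis) at or below each log2 fold change (horizontal axis, cut at -4 and 4) for the 63 tested channel genes in red and all tested genes in grey. The red curve lies left of the grey one near 0 for both comparisons that hold UM10 on csgA(-), with medians of -0.67 and -0.47. For UM10 on K12 over N2, with a median of -0.19, the curves are closer near 0. At positive values the red curve lies above the grey one there too.

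Related genes outside the symbol rule were also read. Of 28 listed Cys-loop channel names of other kinds, such as unc-29, unc-49 and avr-14, 25 were found in the annotation and 22 of these were tested. Names not found, among them ggr-1, ggr-2 and ggr-3, were left out. Whether those genes stand in the annotation under other symbols was not tested. Of the 22, 0 were called in any comparison, with a median log2 fold change of -0.30 for the mean of both UM10 groups over N2. Of 30 listed names for receptor assembly, clustering and trafficking, 28 were found and 26 tested. In the mean of both UM10 groups 1 was called (10.3% of all tested genes), with a median of -0.53 beside -0.04 for all tested genes. That gene was lin-10, whose product acts in the transport and localisation of glutamate receptors, and it was at 18.4 and 39.2 CPM in UM10 on csgA(-), 36.9 and 47.97 CPM in UM10 on K12, and 100.1 and 80.0 CPM in N2. Its log2 fold change over N2 was -1.36 ± 0.36 for the mean of both UM10 groups (SE; edgeR adjusted p 0.0392) and -1.64 ± 0.45 for UM10 on csgA(-) (SE; edgeR adjusted p 0.0437), so it was called lower in both. UM10 on csgA(-) replicate 1 was the lowest library for 16 of the 22 channel genes and for 17 of the 26 assembly genes.

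Marker lists of tissues were read in the same libraries. The 21 pan-neuronal markers, all tested, had summed levels of 1553 and 1498 CPM in UM10 on csgA(-), 1123 and 1632 CPM in UM10 on K12, and 1627 and 1224 CPM in N2, so the groups overlapped, and 0 were called. UM10 on csgA(-) replicate 1 was the lowest library for 11 of these 21. The 14 body wall muscle markers summed to 15825 and 16608 CPM in UM10 on csgA(-), 11859 and 9819 CPM in UM10 on K12, and 28335 and 17805 CPM in N2, with every UM10 library below N2, 13 of 14 below 0 for the mean of both UM10 groups and 0 called. Of the 10 germline markers 1, puf-8, was called higher on csgA(-) (3.95% of all tested genes) and in the mean of both UM10 groups (5.07%). The 10 summed to 2196 and 1755 CPM in UM10 on csgA(-), 1186 and 1972 CPM in UM10 on K12, and 467 and 1296 CPM in N2. The sums of UM10 on K12 and N2 thus overlapped, and N2 replicate 1 was the lowest library for all 10. Of the 12 hypodermal markers 8 were below 0 and 4 above 0 on csgA(-), where dpy-7, rol-6, bli-1 and mlt-10 were called lower (5.11% of all tested genes). The median of the 12 was -0.33 on csgA(-) and -0.15 for the mean of both UM10 groups, with sums of 590 and 589.7 CPM in UM10 on csgA(-), 825 and 1068 CPM in UM10 on K12, and 1237 and 2076 CPM in N2. The 6 pharyngeal muscle markers summed to 58.7 and 155 CPM in UM10 on csgA(-), 23.8 and 137 CPM in UM10 on K12, and 64.02 and 359 CPM in N2. All 6 were below 0 for the mean of both UM10 groups, with a median of -1.03 and 0 called. Of the 10 intestinal markers 2 were called lower on csgA(-) (5.11% of all tested genes) and 1 in the mean of both UM10 groups (5.25%). All 10 were below 0 in both comparisons, with a median of -1.04 for the mean. Of the 5 tested glial markers 0 were called. The part of these tissue markers in the values of the channel genes was not tested.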

How the data were processed

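The authors deposited 1 table of raw read counts per library, with no normalization. STAR 2.7.5, DESeq2 1.28.1 and the build WBcel235 are named in the submitters' processing notes, and the tables have the layout of STAR gene counts. The annotation used for counting is not given in the sources used here. Per the labels' protocols, TRIzol RNA was enriched for poly-A RNA. The unstranded counts were used. Of the counts in the 2 stranded columns together, the first held 48.4% to 49.7%, so the libraries were not strand-specific. Summary lines that name no gene, 7.85% to 8.72% of reads, were left out. Overlapping genes were counted without strand, and reads mapping to several places (2.57% to 4.05%) were not assigned to a gene.

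Symbols and coordinates came from the Ensembl release 115 annotation of WBcel235. Genes were kept by filterByExpr, scaled by TMM and tested in edgeR 4.0.16 (R 4.3.3) by its quasi-likelihood F test on all 6 libraries with 1 term per group, which left 3 residual degrees of freedom. P-values were adjusted by Benjamini-Hochberg over all 15331 genes within each of 4 comparisons. Genes below an adjusted p of 0.05 are the called ones. Each standard error (SE) was computed as |log2 fold change| divided by the root of its F value. The test was also run on counts simulated from its own fitted spread, with large changes added to some genes. That run does not bear on small changes or on how well the fit describes these libraries. Alternatives were DESeq2 1.42.0, other scalings, no filter, stranded columns, a replicate block and libraries left out.

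Named genes were those called, the 3 largest changes in each direction per comparison, the 10 highest per length and 13 preset genes. Genes of their groups and neighbours were added where they complete a group. The members and lists were chosen with earlier results of these data known.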

Additional observations from a re-analysis of the deposited data

How the results depend on the processing

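The count of called channel genes equalled the reported count or was within 1.5 times of it under 47 of 59 alternatives. Many of these agreements set 0 against 0, in UM10 on K12 against N2 (15 alternatives) and between the foods. Those say nothing on how stable the calls were. For UM10 on csgA(-) against N2, 2 were called as reported, 4 with DESeq2, 4 with the replicate block, and 0 to 2 with libraries left out. For the mean of both UM10 groups against N2, 2 were called as reported, 1 with the first stranded column, 0 to 2 with single libraries left out, and 1 without N2 replicate 1 and csgA(-) replicate 1 together, an alternative chosen after seeing the data. For the foods, 0 were called as reported, 1 with DESeq2 and 1 without the filter on low counts. For UM10 on K12 against N2, 0 were called under all 15 alternatives. The cause of these changes was not tested. Upper-quartile scaling moved the median over all tested genes of the log2 fold change for the mean of both UM10 groups to -0.19, from -0.04, and that of the channel genes to -0.56, from -0.41.

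Same-numbered libraries had correlated deviations of 0.35, -0.08 and 0.09, so the numbers were not taken to pair them. With the replicate block, 845 genes in place of 421 were called in UM10 on K12 against N2, 2434 in place of 1388 on csgA(-) against N2, 2418 in place of 1582 for the mean of both groups, and 165 in place of 0 between the foods. On csgA(-) it called lgc-13 higher (2.45, edgeR adjusted p 0.0481) and lgc-54 lower (-2.50, 0.0431).

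Signs that turned belonged to uncalled genes. For the mean of both UM10 groups, nmr-2 was at -0.039 with the second stranded column and lgc-50 at 5.15e-04 with the first. With libraries left out, that log2 fold change ran from -1.21 to 0.13 for lgc-21, -0.28 to 0.68 for lgc-32, -0.87 to 0.031 for lgc-35, -0.50 to 0.12 for nmr-1, -0.17 to 0.53 for nmr-2 and -0.36 to 0.18 for lgc-50. For the foods, lgc-1 ran from -0.10 to 0.97. With 1 library left in a group, that library was assumed to vary like the others. The part of depth in the values of the 37 tested members below 1 CPM per kilobase was not tested.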

Other observations

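Among Cys-loop channel genes outside the symbol rule, glc-1, a glutamate-gated chloride channel gene known as an ivermectin target, had the largest positive difference. This gene was picked with its values known. Its levels were 6.62 and 10.1 CPM in UM10 on csgA(-), 9.09 and 8.81 CPM in UM10 on K12, and 0.579 and 3.29 CPM in N2. All UM10 libraries lay above both N2 libraries, and the log2 fold change of the mean of both UM10 groups over N2 was 2.12 ± 0.63 (SE), which was not called (edgeR adjusted p 0.0546).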
